A study of Mus musculus with 6 samples.

Results

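Among the iNKT cells sorted from mouse liver, 687 carried RNA of Gzmb, the gene of granzyme B, and are described here. They were chosen by their measured UMIs, as barcodes of the 2 liver libraries with 300 to 4000 genes and at most 15% mitochondrial UMIs (unique molecular identifiers, each standing for 1 captured RNA molecule), with at least 1 Gzmb UMI and with 0 UMIs of Gzma, Tyrobp, Fcer1g and Top2a. Gzma encodes granzyme A, Tyrobp and Fcer1g encode adaptor proteins of NK and myeloid cell receptors, and Top2a marks dividing cells. The rule took 312 of the 2801 cells of liver library 1 and 375 of the 2861 cells of liver library 2, out of 5662 liver cells and 16532 cells in the whole series. These cells are called Gzmb+ cells below. The cells they were compared with, called matched cells, had 0 UMIs of all 5 genes and were paired one to one within the same library, each at a total UMI count within 10% of its partner's. Levels and shares of the 5 rule genes are therefore given as a description only.

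The libraries were made from wild-type C57BL/6 mice of 5 weeks, untreated as far as the labels state, with 2 libraries each of liver, spleen and lymph node. Cells positive for CD8 or B220 had been removed with magnetic beads, and the cells sorted had bound a CD1d tetramer as well as anti-TCR-β, a gate that would remove NK cells and ILC1, which lack a T cell receptor. RNA was read from the 3′ end with 10x Genomics v2 chemistry. The number of mice behind each library is not given in the labels, and the study's methods call the libraries of an organ biological repeats. The p-values below rest on 2 library pairs and on a dispersion estimated over many genes together. This dispersion was 5.99e-04 in the main comparison below, so p-values there reflect mainly the counting error of UMIs. A low p-value is no measure of the spread between libraries. A gene whose 2 pairs differ can therefore still be called. The labels name the molecule as nuclear RNA.

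Invariant natural killer T (iNKT) cells carry a semi-invariant T cell receptor that recognises lipids on CD1d, and those of the mouse liver are mostly of the T-bet-dependent iNKT1 type, which shares many surface receptors with NK cells. Granzyme B is a serine protease of cytotoxic granules. It enters target cells with the help of perforin and starts cell death by cleaving caspases and other proteins. Killing by such cells is held in check by inhibitory receptors, among them the pair of Klrc1 (NKG2A) and Klrd1 (CD94), and is started by activating ones such as Klrk1 (NKG2D).

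Gzmb lies in a cluster of serine protease genes on chromosome 14 (56258838 to 56262260, minus strand, GRCm38, the assembly also called mm10), and Gzmc, the gene with the highest fold below, lies 24.2 kb away in the same cluster (56231441 to 56234656). Klrc1, the gene with the lowest adjusted p, lies on chromosome 6 (129666015 to 129678973). Their promoters are shown from 250 bases before to 50 bases after the annotated start, 5′ to 3′ in the direction of the gene, from RefSeq (GRCm38.p6), to let the 3 genes be compared. Capitals mark matches on either strand to 3 short motifs, TGACGT (CRE-type), TGTGGT (Runx-type) and TGANTCA (AP-1-type), and a match to the opposite strand appears as its reverse complement.

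Gzmb, chr14:56262285-56262584: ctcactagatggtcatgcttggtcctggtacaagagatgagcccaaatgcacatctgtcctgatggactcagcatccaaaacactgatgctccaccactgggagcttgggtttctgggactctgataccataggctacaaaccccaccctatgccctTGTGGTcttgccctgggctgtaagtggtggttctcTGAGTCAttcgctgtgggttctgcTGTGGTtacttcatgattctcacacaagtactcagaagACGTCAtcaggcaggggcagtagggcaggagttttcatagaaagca
Gzmc, chr14:56234608-56234907: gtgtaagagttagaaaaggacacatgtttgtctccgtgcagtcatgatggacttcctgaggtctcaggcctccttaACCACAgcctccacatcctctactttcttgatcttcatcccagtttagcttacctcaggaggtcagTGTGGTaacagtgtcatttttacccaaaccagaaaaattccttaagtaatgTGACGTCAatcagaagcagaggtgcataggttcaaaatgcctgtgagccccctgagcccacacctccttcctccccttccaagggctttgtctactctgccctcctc
Klrc1, chr6:129678924-129679223: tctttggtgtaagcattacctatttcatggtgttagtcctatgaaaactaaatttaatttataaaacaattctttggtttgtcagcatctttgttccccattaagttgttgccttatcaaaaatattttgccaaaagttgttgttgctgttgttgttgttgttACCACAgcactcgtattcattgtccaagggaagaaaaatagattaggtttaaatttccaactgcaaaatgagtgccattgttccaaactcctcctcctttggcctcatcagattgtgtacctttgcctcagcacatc

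The Gzmb window held 1 CRE-type, 2 Runx-type and 1 AP-1-type match, the last of which reads the same on both strands. The Gzmc window held a CRE-type match on each strand, which overlap, and 2 Runx-type matches. The Klrc1 window held 1 Runx-type match. Of the 32851 promoter windows of this length in the table, 7.51% held the CRE-type, 16.8% the Runx-type and 7.81% the AP-1-type letters. These matches describe the sequence and say nothing of binding.

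The liver libraries held 11086603 and 9041008 UMIs, against 4768016 to 5433779 in the 4 others. Median UMIs per cell were 3592 and 2880 in the liver libraries and 1470 to 1730.5 in the spleen and lymph node libraries. Pairs of libraries shared 6 to 20 barcodes, the 2 liver libraries 6. Xist UMIs were found in the liver and spleen libraries (5401 to 10404 UMIs) and in neither lymph node library (0 UMIs). Xist is a noncoding RNA of female cells, so a difference between liver and lymph node cannot be told apart from one between sexes.

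Gzmb RNA was scarce in most of the cells that had any. Of the 687 Gzmb+ cells, 425 (61.9%) held 1 Gzmb UMI, 122 held 2 and 140 (20.4%) held 3 or more. In library 1 the numbers were 192, 59 and 61 cells, and in library 2 they were 233, 63 and 79. At the upper end, 8 and 10 cells held 10 UMIs or more, with a highest value of 21 in library 1 and 15 in library 2. Both libraries thus had the same shape, a majority at the threshold of the rule and a thin tail of strongly positive cells. Just outside the threshold stood 1906 and 1888 cells with 0 Gzmb UMIs under the same exclusions.

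**Figure D1:**
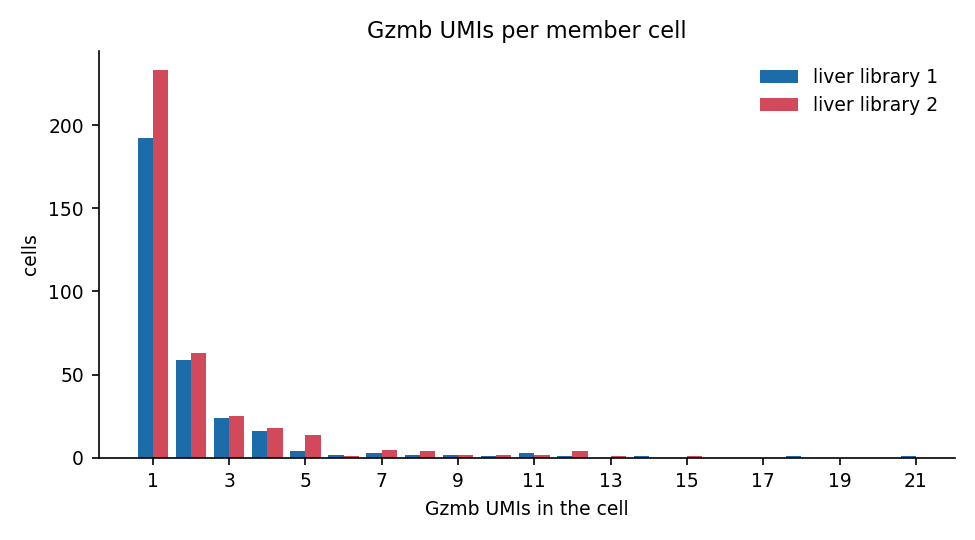
Number of Gzmb+ cells (y axis) by the Gzmb UMIs in the cell (x axis) in liver library 1 (312 cells) and library 2 (375 cells). The bar at 1 UMI holds 192 and 233 cells, and 8 and 10 cells lie at 10 UMIs or above.

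Gzmb+ cells made up 11.1% of the cells of liver library 1 (exact 95% binomial interval 10.0% to 12.4%) and 13.1% of those of library 2 (11.9% to 14.4%), a mean of 12.1% ± 1.39 (SD, n = 2). Intervals of shares cover counting error only. In spleen the same rule found 19 (0.696%) and 8 (0.301%) cells, and in lymph node 6 (0.227%) and 10 (0.351%). With every cell thinned to 1000 UMIs, cells with a Gzmb UMI made up 8.07% and 9.99% of the liver cells, 0.658% and 0.523% of the spleen cells and 0.253% and 0.254% of the lymph node cells, so that all 4 other libraries still lay below both liver libraries. Before thinning and before the exclusions these shares were 18.0% and 18.7%, 1.17% and 0.716%, and 0.341% and 0.527%.

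A single Gzmb UMI need not mean that the cell transcribed the gene, since free RNA enters droplets. In the liver, cells marked as iNKT17, by UMIs of at least 3 of 11 iNKT17 genes, should lack Gzmb and held it in 8 of 59 cases under the same exclusions (13.6%, exact 95% interval 6.04% to 25.0%), against 9 of 59 (15.3%) in other cells of equal depth. In library 1 these were 6 of 30 marked (20.0%) against 3 of 30 other cells (10.0%), and in library 2 they were 2 of 29 (6.90%) against 6 of 29 (20.7%), so the order differed between libraries. Tmem176a and Tmem176b, among the 11 genes, were themselves higher in Gzmb+ than in matched cells of both libraries without being called (log2 folds 0.47 and 0.48, edgeR adjusted p = 0.387 and 0.174). The mark may thus favour cells with Gzmb. Cells marked as recent emigrants, by UMIs of at least 3 of 6 emigrant genes, held it in 5 of 63 (7.94%, 2.63% to 17.6%), against 11 of 63 (17.5%) in other cells of equal depth. The median depth of these marked cells was 4706.5 and 3737 UMIs for iNKT17 and 5518 and 3503.5 UMIs for emigrants, in libraries 1 and 2. In the 2 liver libraries as a whole, 14.1% and 16.6% of cells under the exclusions held a Gzmb UMI. Both values lie within the intervals of the marked cells, which are wide, so the share of cells with a UMI is not read as a share of expressing cells. At 3 UMIs or more, 1 of the 59 iNKT17-marked cells and 0 of the 63 emigrant-marked cells remained, against 2 of 59 and 4 of 63 other cells of equal depth. The 0 of 63 allows a share of up to 4.76% (3 counts of the total). Before the exclusions, iNKT17-marked cells held a Gzmb UMI in 9 of 79 cases (11.4%), against 20 of 79 (25.3%) other cells of equal depth. In library 1 both stood at 6 of 35, and in library 2 they stood at 3 and 14 of 44. For emigrant-marked cells the counts were 20 of 106 (18.9%) against 24 of 106 (22.6%).

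The exclusions removed 192 and 161 further cells with Gzmb RNA, 353 of 1040, and with them 43.6% and 39.3% of all Gzmb UMIs of the 2 liver libraries. Of these, 47 and 45 cells also carried Gzma, 67 and 56 Tyrobp, 95 and 92 Fcer1g and 42 and 25 Top2a (a cell can carry several). Excluded cells held a median of 2 Gzmb UMIs in both libraries, against 1 in the Gzmb+ cells. The Gzmb+ cells described here are therefore the part of the liver's Gzmb RNA found outside cells with granzyme A, with NK-type adaptors or in division.

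The sort label was checked against defining genes. Cd3d, a chain of the CD3 complex, stood at 1963 and 2186 CPM in the Gzmb+ cells of libraries 1 and 2 and at 1954 and 2223 CPM in their matched cells, and 311 and 374 Gzmb+ cells had median summed counts of 11 and 10 UMIs of Cd3e, Cd3d, Cd3g and Cd247, with 1 and 0 cells lacking all 4. Zbtb16, which encodes the iNKT factor PLZF, stood at 79.7 and 68.0 CPM in Gzmb+ and 118 and 67.7 CPM in matched cells, and Tbx21 (T-bet) at 127 and 151 against 101 and 145 CPM. None of the 7 tested genes of an NKT identity list was called by edgeR or DESeq2, and 0 had an unadjusted p under 0.05 in edgeR. Median CD3 counts of matched cells were 10 and 11 UMIs. Eomes, a transcription factor of conventional NK cells, was at 0 UMIs in all 4 sums, and Ncr1 had 0 and 2 UMIs in Gzmb+ and 0 and 4 in matched cells. At least 1 UMI of 8 NK and ILC1 genes (Ncr1, Eomes, Klra8, Itga2, Gzmc, Khdc1a, Fcgr3 and Ncam1) was present in 23 (7.40%) and 24 (6.42%) Gzmb+ cells and in 11 (3.54%) and 22 (5.88%) matched cells. Of these, Ncam1 had 0 UMIs in all 4 sums and marks human rather than mouse NK cells. Gzmc, another of the 8 and called higher below, was present in 14 of the 23 and 12 of the 24 Gzmb+ cells. Among the matched cells it was present in 6 of the 11 and 4 of the 22. The full list of 10, with Cd7 and Tnfsf10, which T cells also express, came to 559 and 326 against 223 and 203 CPM. Of 11 hepatocyte genes 6 were at 0 throughout, and their summed level was 21.0 and 23.1 CPM in Gzmb+ and 14.2 and 20.8 CPM in matched cells. The 7 B cell genes came to 39.1 and 1.28 against 39.8 and 22.1 CPM, and the 16 myeloid genes to 306 and 275 against 285 and 329.5 CPM. Cd8a, whose protein the bead step targeted, had 13 and 0 UMIs in Gzmb+ and 1 and 0 in matched cells. The erythroid and platelet list came to 57.3 and 233 against 48.3 and 32.6 CPM, mostly of Hbb-bs (23 and 104 against 20 and 17 UMIs). Haemoglobin genes were left out of the tests, and the part of these cell types in the results was not tested except as given next. With cells holding any of the 8 NK and ILC1 genes left out of both arms, an alternative added after seeing the data, 17 genes were called, 14 of the 20 described below among them. Klrk1, Xcl1, Lmo4, Tcf7 and 1110059G10Rik then missed the threshold (adjusted p = 0.0785 to 0.728), and Gzmc could not be tested.

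In depth and quality the arms were alike. Partners were found for 311 of 312 and 374 of 375 Gzmb+ cells, with median UMIs of 3438 against 3439 in library 1 and 2934.5 against 2934.5 in library 2. Median genes per cell were 1350 and 1200 in Gzmb+ cells and 1346 and 1194.5 in matched cells, and median mitochondrial shares 2.62% and 2.73% against 2.80% and 2.79%.

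The main comparison asked which other genes differed between liver iNKT cells with and without Gzmb RNA. Gzmb+ cells had more RNA of 5 of 11 tested NK lectin-like receptor genes, of Gzmc, of the granule gene Nkg7 and of the chemokines Ccl5 and Xcl1. They had less RNA of the transcription factor gene Tcf7. The folds ran from 6.67 for Gzmc and 2.22 for Klrc1 down to 1.21 for Nkg7 and 1.20 for Ccl5, with 0.519 for Tcf7, which was called in 6 of 14 alternatives with a test. The Gzmc fold rests on 43 and 32 UMIs in Gzmb+ cells, 15 and 16 of them in 1 cell each, against 7 and 4 in matched cells. Gzmc passed the filter on low counts only through the Gzmb+ cells. UMIs were summed per arm and library, and the 4 sums were tested with edgeR's quasi-likelihood test with library as a block. Levels below are UMIs per 1000000 UMIs of the sum (CPM). Of 7089 genes tested, 20 were called at a Benjamini-Hochberg adjusted p under 0.05 (0.282%), 18 higher (0.254%) and 2 lower (0.0282%) in Gzmb+ cells. At an unadjusted p under 0.05 there were 442 genes (6.24%). The median log2 fold of all tested genes was -0.0036, and 3 called genes differed by at least 2-fold. Folds had the same sign in both libraries for 19 of the 20 called genes.

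Without library in the fit 2 genes were called (Klrc1 and Gzmc), and DESeq2 called 1 (Klrc1), while all 20 genes kept the sign of their fold in both. No gene outside the 20 was called by either, so the counts of 0 calls in gene lists of this comparison hold for them too. Without the deepest 5% of cells 3 were called (Klrc1, Gzmc and Crip1), again with all 20 signs kept. Crip1 there had a log2 fold of 0.475 ± 0.050 SE (edgeR adjusted p = 0.0180), against 0.477 ± 0.054 SE (1.6e-15) in the main fit. Klrc1 had 1.11 ± 0.08 SE (0.00227) against 1.15 ± 0.09 SE (6.6e-31). Folds and SEs of these genes were nearly unchanged while their p rose. The lower count of calls is therefore not read as an effect of the deepest cells, and its reason was not tested. Of alternatives with a test, 1110059G10Rik was called in 3 of 15, Myo6 in 5 of 15, and Malat1 and Xcl1 each in 7 of 15.

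**Figure D2:**
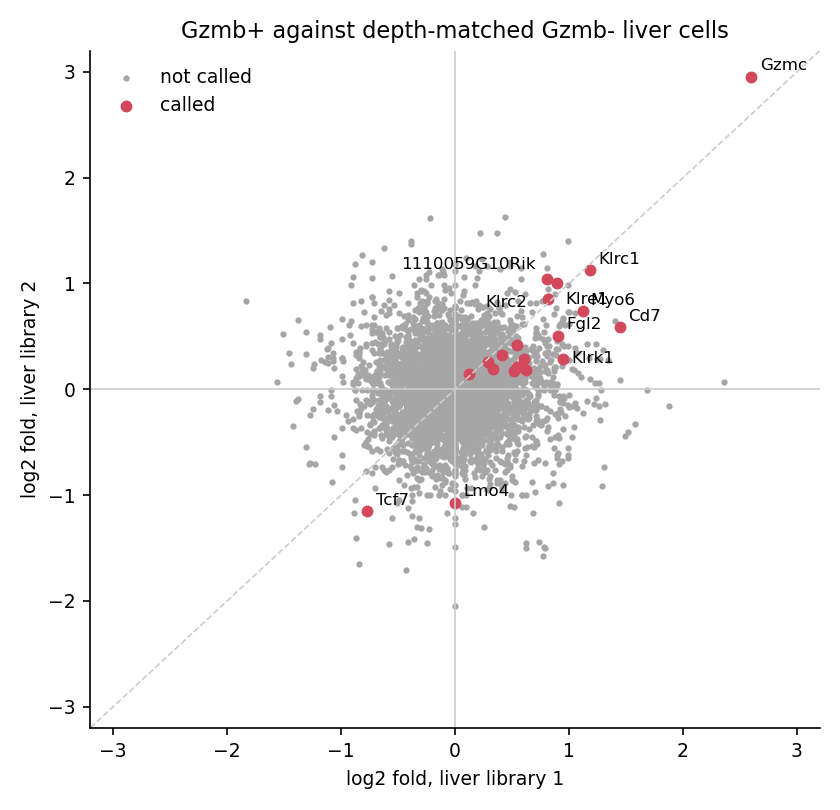
Log2 fold of Gzmb+ over matched cells in liver library 1 (x axis) and library 2 (y axis) for genes with a mean of at least 20 CPM; red points are called genes and the dashed line marks equal folds. Gzmc stands apart at 2.60 and 2.96, and the called receptor genes lie in the upper right. Lmo4 lies on the vertical axis with a fold of 0.00 in library 1.

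Genes of NK lectin-like receptors, which bind MHC class I and related stress ligands, formed the largest called group. Of 22 listed genes 11 were tested, 5 were called higher and none lower, and 10 had a fold above 0, with a median log2 fold of 0.83 against -0.0036 over all genes. Some of its genes (Klra1, Klrb1 and Klrc2) were named by the study in iNKT1 cells of these libraries, so the list is not independent evidence of a direction. Klrc1, which encodes the inhibitory receptor NKG2A, stood at 570.4 and 503 CPM in the Gzmb+ cells of libraries 1 and 2 and at 256 and 233 CPM in their matched cells (log2 fold 1.15 ± 0.09 SE, adjusted p = 6.6e-31). Both Gzmb+ sums lay above both matched sums, and the 2 libraries gave folds of 1.18 and 1.12. A Klrc1 UMI was present in 125 of 311 and 138 of 374 Gzmb+ cells, and in 72 and 86 matched cells. Klrc1 was the 1 gene called under every alternative with a test.

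Klre1 (NKG2I) stood at 203 and 217 CPM in the Gzmb+ cells of libraries 1 and 2 and at 111 and 109 CPM in their matched cells (log2 fold 0.95 ± 0.14 SE, adjusted p = 2.8e-08), and Klrc2, which encodes the activating receptor NKG2C, at 246 and 189 against 142 and 105 CPM (log2 fold 0.83 ± 0.14 SE, adjusted p = 1.1e-06). For both genes the Gzmb+ sums again lay above the matched sums in each library. Klrc1 and Klrc2 are close relatives, and 49.6% of the 31-base stretches of annotated Klrc1 transcripts also occur in those of Klrc2. Reads that lie wholly in shared stretches cannot be told apart by sequence, and their effect on the counts of either gene was not tested. Klrk1, the activating receptor NKG2D, stood at 769 and 659 against 406 and 547 CPM (log2 fold 0.59 ± 0.08 SE, adjusted p = 1.3e-10). Its rise was uneven, with log2 folds of 0.95 and 0.29. Klrd1, which encodes the CD94 partner of NKG2A and NKG2C, stood at 523 and 462 against 346 and 413 CPM (log2 fold 0.38 ± 0.09 SE, adjusted p = 0.00382), with folds of 0.62 and 0.18.

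The 5 called receptor genes lie within 101 kb of chromosome 6 (129577905 to 129678973, GRCm38), in the order Klre1, Klrd1, Klrk1, Klrc2 and Klrc1. They are the only tested genes that lie wholly inside this span. Of the 6 other tested receptor genes none was called by edgeR or DESeq2, and 5 had folds above 0. Klra1 (Ly49A, an inhibitory receptor) stood at 69.9 and 61.6 against 38.3 and 36.5 CPM (log2 fold 0.83, adjusted p = 0.174), and Klrb1c (NK1.1) at 376 and 405 against 396 and 393 CPM (log2 fold 0.00, adjusted p = 0.998). Klra5, which was too rare to be tested, had 9 and 23 UMIs in Gzmb+ and 1 and 3 UMIs in matched cells. Per cell, 3 or more of the 5 called genes were present in 116 (37.3%) and 109 (29.1%) Gzmb+ cells, against 64 (20.6%) and 67 (17.9%) matched cells, while none of the 5 was present in 67 (21.5%) and 91 (24.3%) against 117 (37.6%) and 123 (32.9%).

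Of 20 listed cytotoxic granule genes 16 were tested, 2 were called higher (Gzmc and Nkg7) and none lower. Of the 16, 9 had a fold above 0 (median log2 fold 0.12), and 5 had an unadjusted p under 0.05, Gzmc, Nkg7, Ctsw and Serpinb9 with folds above 0 and Unc13d with one below 0. Gzmc, a granzyme of the same cluster as Gzmb, had 43 and 32 UMIs in Gzmb+ and 7 and 4 UMIs in matched cells (60.1 and 41.1 against 9.94 and 5.21 CPM, log2 fold 2.74 ± 0.38 SE, adjusted p = 6.0e-10). Since both matched sums held under 10 UMIs, Gzmc passed the filter on low counts only through the Gzmb+ sums; it was called without the filter too. Its UMIs came from few cells, 14 and 12 Gzmb+ cells against 6 and 4 matched cells, and 1 cell in each library held 15 and 16 of them. With that cell left out of the Gzmb+ arm, 28 and 16 UMIs remained (39.3 and 20.6 CPM). None of the Gzmb+ cells with Gzmc lacked CD3 RNA, and their median CD3 counts of 11 and 10 UMIs equalled those of all Gzmb+ cells. Gzmb and Gzmc transcripts share 1.35% of the 31-base stretches of Gzmb. The neighbouring Gzmd, Gzme, Gzmf, Gzmg and Gzmn were at 0 UMIs in all 4 sums.

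Nkg7, a membrane protein of cytotoxic granules, stood at 2848 and 3079 CPM in the Gzmb+ cells of libraries 1 and 2 and at 2371 and 2599.6 CPM in their matched cells (log2 fold 0.27 ± 0.04 SE, adjusted p = 1.5e-07), with Gzmb+ sums above both matched sums. Perforin RNA was scarce, with 4 and 5 Prf1 UMIs in Gzmb+ and 3 and 2 in matched cells, too few to test. Gzmk had 0 and 0 against 1 and 0 UMIs, and Gzmm 2 and 0 against 0 and 1. Serpinb9, which encodes an inhibitor of granzyme B, stood at 99.3 and 103 against 58.2 and 76.8 CPM and was not called (log2 fold 0.59, adjusted p = 0.342). Serpinb6b stood at 152 and 124 against 155 and 132 CPM (adjusted p = 0.985), and Fasl, the ligand of the Fas death receptor, at 86.7 and 110.3 against 102 and 82.1 CPM (adjusted p = 0.976).

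Among 18 listed cytokines and chemokine ligands 8 were tested and 2 were called, both higher. Ccl5, which attracts T cells and monocytes, stood at 6229.9 and 4334 CPM in the Gzmb+ cells of libraries 1 and 2 and at 5032 and 3834 CPM in their matched cells (log2 fold 0.26 ± 0.04 SE, adjusted p = 6.0e-10). It was higher in Gzmb+ cells within each library, while library 1 exceeded library 2 in both arms. Xcl1, a chemokine for cross-presenting dendritic cells, stood at 418 and 461 against 319 and 372 CPM (log2 fold 0.36 ± 0.09 SE, adjusted p = 0.0241). Ifng, the signature cytokine of iNKT1 cells, stood at 149.6 and 158 against 68.2 and 172 CPM, and it was not called (log2 fold 0.36, adjusted p = 0.64). In library 2, 1 matched cell held 43 of the 132 Ifng UMIs, without which the matched level was 116 CPM. Ifng was present in 65 and 88 Gzmb+ cells and in 37 and 69 matched cells. Il4 was lower in both libraries without being called (119 and 154 against 139 and 254 CPM, log2 fold -0.51, adjusted p = 0.0587). In library 2, 1 matched cell held 43 of the 195 Il4 UMIs, without which the matched level was 199 CPM. Ccl3 had 0 and 1 UMIs in Gzmb+ and 0 and 0 in matched cells, and Ccl4 1 and 5 against 0 and 7, too few to test.

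The other genes called higher were Cd7, Fgl2, Crip1, S100a6, Ly6c2, Cd160, Myo6, 1110059G10Rik and the noncoding Malat1. Cd7, an immunoglobulin-family receptor of T and NK cells, stood at 449 and 217 CPM in the Gzmb+ cells of libraries 1 and 2 and at 168 and 146 CPM in their matched cells (log2 fold 1.08 ± 0.12 SE, adjusted p = 4.4e-16). Its difference was mostly that of library 1, with log2 folds of 1.45 and 0.59, and with each cell thinned to 1500 UMIs the log2 fold was 1.83. Fgl2, a fibrinogen-like protein with prothrombinase activity, stood at 368 and 278 against 200.2 and 198 CPM (log2 fold 0.71 ± 0.11 SE, adjusted p = 1.5e-07). Crip1, a small LIM-domain protein, stood at 1632 and 1546 against 1137 and 1169.6 CPM (log2 fold 0.48 ± 0.05 SE, adjusted p = 1.6e-15), and a UMI of it was present in 90.0% and 85.6% of Gzmb+ and 83.3% and 78.6% of matched cells. In Fgl2 and Crip1 all Gzmb+ sums lay above all matched sums.

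S100a6, a calcium-binding protein, stood at 729.8 and 779 against 488 and 646 CPM (log2 fold 0.43 ± 0.07 SE, adjusted p = 1.8e-06) and was the 1 called gene of 22 tested actin and calcium-binding genes, 19 of which had folds above 0. Ly6c2, a surface protein of effector T cells, stood at 1411 and 1463 against 1004 and 1308 CPM (log2 fold 0.33 ± 0.05 SE, adjusted p = 1.1e-06). Cd160, a receptor of NK and T cells that binds HVEM, stood at 489 and 431 against 341 and 378 CPM (log2 fold 0.37 ± 0.09 SE, adjusted p = 0.0143). Myo6, an actin motor, stood at 88.1 and 73.1 against 41.2 and 44.3 CPM (log2 fold 0.92 ± 0.23 SE, adjusted p = 0.0181), and 1110059G10Rik at 78.3 and 74.4 against 45.4 and 36.5 CPM (log2 fold 0.92 ± 0.23 SE, adjusted p = 0.0262). Malat1, a nuclear noncoding RNA and the most abundant of the called genes, differed least, at 46387 and 40661 against 43396 and 37293 CPM (log2 fold 0.13 ± 0.03 SE, adjusted p = 4.7e-04).

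**Figure D3:**
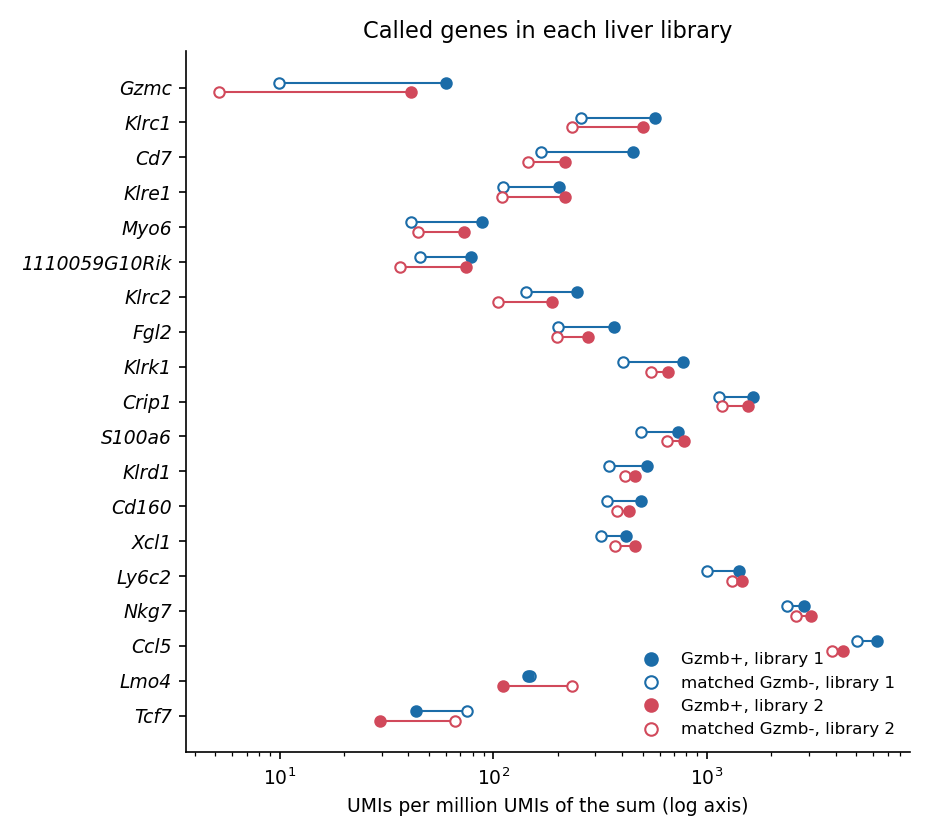
Level (x axis, CPM, log axis) of 19 called genes (y axis; Malat1 is left out for its high level) in Gzmb+ cells (filled) and matched cells (open) of liver library 1 (blue) and library 2 (red); lines join the arms of a library. Filled points lie to the right of open ones in both libraries for the 17 genes called higher, and the 2 points of Lmo4 in library 1 fall together.

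Of iNKT1 identity genes 16 were tested and 4 were called higher (Klrk1, Klrd1, Cd160 and Ly6c2), against 0.254% of all tested genes. Of the 16, 15 had folds above 0, with a median log2 fold of 0.19 against -0.0036 over all genes. Klrk1 and Klrd1 are also among the 5 called receptor genes above, so this list is no separate finding for them. Regulators of the iNKT1 type were not among the 4. Tbx21 had a log2 fold of 0.20 (adjusted p = 0.923), and Il2rb, the IL-2 and IL-15 receptor chain under its control, stood at 826 and 872 against 771 and 859.6 CPM (adjusted p = 0.933). Tcf7 and Lmo4 were called lower. Tcf7, which encodes TCF-1, a factor of naive and memory-like T cells, had 31 and 23 UMIs in Gzmb+ and 53 and 51 UMIs in matched cells (43.3 and 29.5 against 75.3 and 66.4 CPM, log2 fold -0.95 ± 0.24 SE, adjusted p = 0.0306), and was lower in both libraries. With each cell thinned to 1500 UMIs its log2 fold was -0.18 (adjusted p = 0.989). It was the 1 called gene of 14 tested genes of recent emigrants and circulation, of which 3 had folds above 0 (median log2 fold -0.12). Lmo4, a LIM-only adaptor, stood at 145 and 110.3 against 148 and 234 CPM (log2 fold -0.58 ± 0.14 SE, adjusted p = 0.0181), and its difference came from library 2 alone (log2 folds 0.00 and -1.07). In all cells without Gzmb under the same exclusions, before matching, Lmo4 stood at 196 and 214 CPM, so that the unmatched level was above that of Gzmb+ cells in both libraries.

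None of 10 tested iNKT2 genes was called, although their median log2 fold was -0.30 and 4 had an unadjusted p under 0.05. Icos, a costimulatory receptor, stood at 246 and 268 against 339 and 324 CPM (log2 fold -0.35, adjusted p = 0.18). In all, 21 of the 30 lists with a tested gene had no called gene, either by edgeR or by DESeq2. They held 239 different tested genes, of which 122 had folds above 0 and 25 (10.5%, against 6.24% of all tested genes) an unadjusted p under 0.05. Their medians ranged from -0.41 (a single endothelial gene, Pecam1) to 0.13 (interferon-stimulated genes). Among them were the NF-kB response (20 tested, median -0.07), TCR activation (13, 0.07), the IL-2 and STAT5 response (17, -0.0062), the IL-12, IL-18 and interferon-gamma receptors (11, -0.0046), effector transcription factors (16, 0.11), glycolysis (14, -0.0030), DNA replication and mitosis (17, -0.22, with 2 genes above 0; Top2a was one of the excluding genes), MYC and ribosome biogenesis (18, -0.04), and survival (14, 0.04). Nfkbia, which encodes an inhibitor of NF-kB, stood at 366 and 377 against 334 and 440.2 CPM. Dusp2, a phosphatase induced on T cell activation, stood at 463 and 255 against 409 and 268 CPM, and Socs2, a target of STAT5, at 324 and 269 against 314 and 237 CPM. The survival gene Bcl2 stood at 1011 and 545 against 987 and 585 CPM, and Cxcr6, a chemokine receptor of liver iNKT cells, at 1397 and 1901 against 1463 and 1780.4 CPM. The direction of the difference was not the same in both libraries for Nfkbia, Dusp2, Bcl2 and Cxcr6, and none of these 5 genes was called. Klf2, a factor of T cell egress, stood at 143 and 86.0 against 119 and 147 CPM, higher in library 1 and lower in library 2 (adjusted p = 0.888).

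The next question was whether these differences grew with the amount of Gzmb RNA. Against matched cells with 0 UMIs, the cells with 3 or more Gzmb UMIs gave 28 called genes of 3003 tested (0.932%), 24 higher (0.799%) and 4 lower (0.133%), and the cells with exactly 1 UMI gave 4 of 5855 (0.0683%), 3 higher (0.0512%) and 1 lower (0.0171%). Both settings were added after the data had been seen, and the number of genes tested differs. The cells with 2 or more UMIs, which include those with 3 or more, gave 10 of 4630 (0.216%), all higher and all among the 20 of the main comparison. The p that edgeR gave to a like fold and SE differed between these fits. Klrc1 had an unadjusted p of 3.7e-24 at 3 or more (log2 fold 2.03 ± 0.20 SE) and of 1.9e-07 at 2 or more (log2 fold 1.72 ± 0.14 SE). Counts of calls, and a call in 1 setting and not in another, therefore do not show that a difference grew. With 1 UMI the called genes were Klrc1 (log2 fold 0.81 ± 0.12 SE, adjusted p = 3.0e-05), Cd7 (log2 fold 0.93 ± 0.15 SE, adjusted p = 2.4e-04), Crip1 (log2 fold 0.38 ± 0.07 SE, adjusted p = 0.0026) and Il4 (log2 fold -0.76 ± 0.16 SE, adjusted p = 0.0255). For Il4, 1 matched cell of library 2 held 43 of 151 UMIs, without which the levels were 120.0 and 163 CPM in Gzmb+ and 164 and 229 CPM in matched cells. With 3 or more, Klrc1 was called at a higher fold (log2 fold 2.03 ± 0.20 SE, adjusted p = 1.1e-20), as were Klre1 (log2 fold 2.31 ± 0.27 SE, adjusted p = 1.1e-12) and Klrk1 (log2 fold 1.39 ± 0.17 SE, adjusted p = 2.0e-13). Gzmc, called too, had 27 and 28 UMIs against 1 and 2, with 15 and 16 of them in 1 cell each. Of 7 tested NK lectin-like receptors 6 were called higher in these cells, Klra1 among them (log2 fold 1.74 ± 0.47 SE, adjusted p = 0.0283). Klra1 was not called at 2 or more UMIs (log2 fold 1.27 ± 0.36 SE, adjusted p = 0.586). Gzmc, Klra1 and Serpinb9 had under 10 UMIs in both matched sums and passed the filter on low counts through the Gzmb+ sums.

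Genes called in the cells with 3 or more UMIs and not in the main comparison included Ifng (log2 fold 1.33 ± 0.32 SE, adjusted p = 0.00698) and Ctsw, the granule protease cathepsin W (log2 fold 0.56 ± 0.15 SE, adjusted p = 0.0373). At 2 or more UMIs neither was called (log2 folds 1.02 and 0.46, adjusted p = 0.462 and 0.283). Serpinb9 was called at 3 or more with 25 and 22 UMIs against 9 and 9 (log2 fold 1.34 ± 0.38 SE). It was not called at 2 or more (log2 fold 1.53 ± 0.26 SE, adjusted p = 0.0771), although its fold there was larger and its SE smaller. The interferon-stimulated genes Isg15 (log2 fold 1.15 ± 0.19 SE, adjusted p = 3.4e-07), Ifit1 (log2 fold 1.19 ± 0.23 SE, adjusted p = 2.9e-04) and Ifit3 (log2 fold 1.40 ± 0.39 SE, adjusted p = 0.0373) were called higher at 3 or more, 3 of 10 tested genes of that list, but single cells held many of their UMIs. None of the 3 was called at 2 or more UMIs (log2 folds 0.69, 0.86 and 0.67, adjusted p = 0.359, 0.289 and 0.808). In libraries 1 and 2 the highest cell held 30 of 94 and 29 of 124 Isg15 UMIs, 30 of 46 and 25 of 61 Ifit1 UMIs, and 3 of 10 and 15 of 36 Ifit3 UMIs. Without its highest Gzmb+ cell, Ifit1 in library 1 stood at 108 CPM, below the 136 CPM of all matched cells and close to the 111 CPM without their own highest cell. Isg15 then stood at 432 and 544 against 217 and 375 CPM in all matched cells. Ifng had 10 of 35 UMIs in 1 cell of library 1. Genes called lower were Lmo4 (log2 fold -1.31 ± 0.33 SE, adjusted p = 0.0122), Icos (log2 fold -0.87 ± 0.21 SE, adjusted p = 0.0142), Tspan32, a tetraspanin (log2 fold -0.82 ± 0.22 SE, adjusted p = 0.0401), and S100a10 (log2 fold -0.42 ± 0.12 SE, adjusted p = 0.0439). None of these 4 was called at 2 or more UMIs, where Lmo4 had an adjusted p of 0.780 and Icos one of 0.209 (log2 folds -0.75 and -0.74). Of the 20 genes of the main comparison 15 were called in these cells too.

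Levels in all cells without the excluding genes, unmatched, traced the same genes by class. Klrc1 stood at 239, 487, 565 and 770.2 CPM in library 1 cells with 0, 1, 2 and 3 or more Gzmb UMIs and at 289, 409, 479 and 745 CPM in library 2. Klre1 stood at 94.7, 165, 203 and 333 CPM and at 111, 130.3, 333 and 367 CPM in the same classes. Both genes were higher in every class than in the one before it in each library. Gzmc stood at 7.70, 9.41, 86.9 and 166 CPM and 9.89, 6.11, 8.11 and 158 CPM, highest in the top class of each library. In library 1, 1 cell held 15 of the 27 Gzmc UMIs of the 60 depth-matched cells of the top class. Without that cell the rest of them stood at 80.5 CPM. The 86.9 CPM at 2 UMIs is from unmatched cells with their highest cell kept, so the 2 values do not settle the rank. In library 2 the top class stood at 68.5 CPM without its highest cell. Isg15 stood at 234, 193, 232 and 585 and 341, 350.1, 300.2 and 699.9 CPM, highest in the top class, and Lmo4 fell over the classes in both libraries (196, 169, 152 and 80.1 and 214, 118, 114 and 84.7 CPM). Median UMIs per cell were 3552, 3347.5, 3518 and 3791 in library 1 and 2781, 2945, 2847 and 3034 in library 2 over the same classes, which are deepest at the top.

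**Figure D4:**
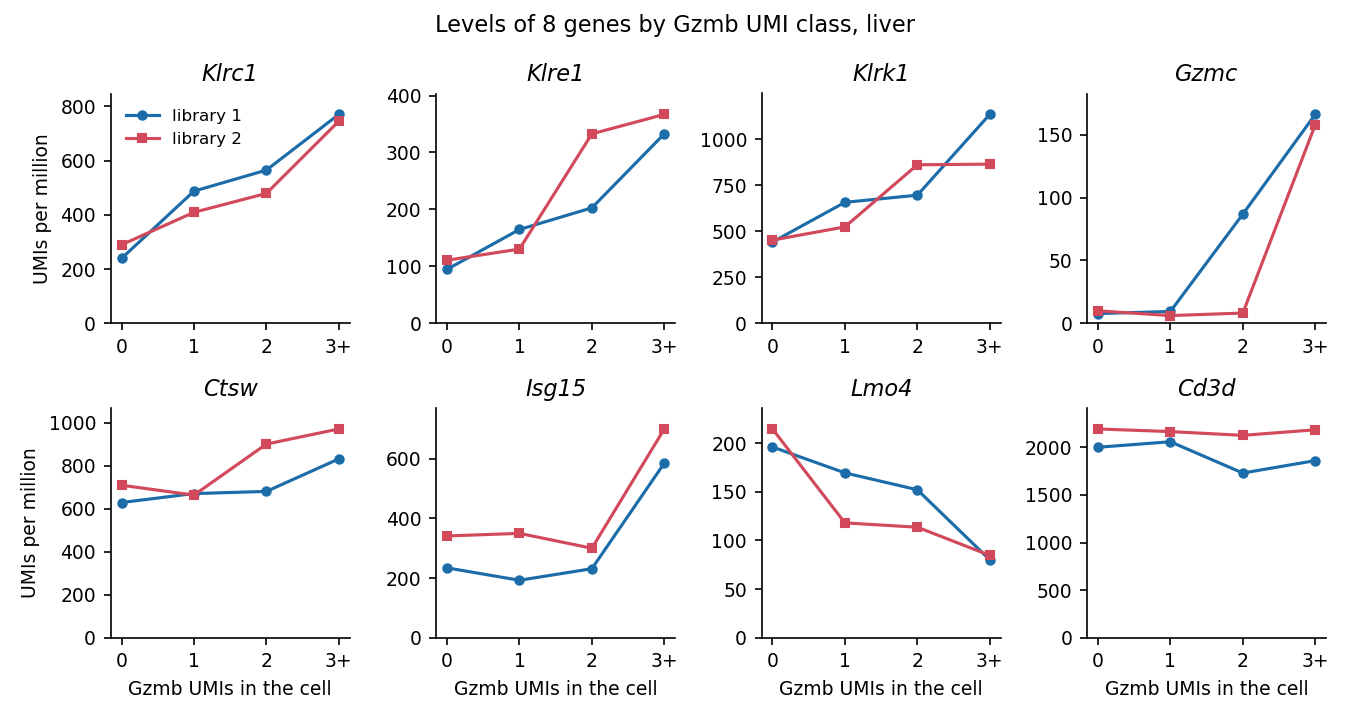
Level (y axis, CPM) of 8 genes in liver cells with 0, 1, 2 and 3 or more Gzmb UMIs (x axis), all under the same exclusions and not matched for depth; blue circles are library 1 and red squares library 2. Klrc1 and Klre1 are higher in each class than in the one before in both libraries. Gzmc and Isg15 are highest at 3 or more. In library 1, 1 cell held 15 of the 27 Gzmc UMIs of the 60 depth-matched cells of that class. Lmo4 falls, and Cd3d stays between 1730.4 and 2193 CPM.

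The difference between classes was also tested directly, with 59 and 78 pairs of depth-matched Gzmb+ cells holding 3 or more UMIs against exactly 1. None of 2924 genes was called by edgeR (0%) or by DESeq2, with 132 genes (4.51%) at an unadjusted p under 0.05 in edgeR and a lowest adjusted p of 0.190 (Gzmc). Of the 20 genes called in the main comparison 19 were tested here, and all 19 had folds of the same sign. Those genes were chosen in a comparison that held the same Gzmb+ cells, so the shared sign is a description and no separate support. Gzmc had 27 and 28 UMIs against 1 and 1 and passed the filter only through the first arm. Klrc1 had 123 and 132 against 65 and 85 UMIs (log2 fold 0.75 ± 0.15 SE, adjusted p = 0.950), and Isg15 93 and 122 against 29 and 46, of which 1 cell held 30 and another 29 (log2 fold 1.50 ± 0.16 SE, adjusted p = 0.200). Klrc1 and Isg15 had more UMIs in the cells with more Gzmb RNA in both libraries, but no gene passed the test. Without library in the fit 7 genes were called, and without the filter on low counts 3.

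Gzmb+ cells were then set beside the other granzyme-bearing cells of the liver, 105 cells with Gzma and no Gzmb UMI that passed the same filters otherwise. With 57 and 48 depth-matched pairs, 2 of 2652 genes were called (0.0754%), both higher in Gzmb+ cells. Klrk1 had 126 and 57 UMIs in Gzmb+ cells against 52 and 37 in Gzma+ cells (log2 fold 1.02 ± 0.19 SE, adjusted p = 0.0443). Cxcl10, an interferon-induced chemokine, had 31 and 18 UMIs against 3 and 5 (log2 fold 2.57 ± 0.45 SE, adjusted p = 0.0415), but 1 cell held 27 of the 31 and another 12 of the 18, and it passed the filter on low counts only through the Gzmb+ sums. Neither gene was called without library in the fit or by DESeq2, and 140 genes (5.28%) had an unadjusted p under 0.05. Of the other receptors, Klrc1 had 68 and 53 against 39 and 38 UMIs (log2 fold 0.64 ± 0.21 SE, adjusted p = 0.906), and Klre1 differed in direction between libraries (36 and 15 against 7 and 26 UMIs).

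Too few cells met the rule elsewhere for a full comparison of organs. Only spleen library 1 (19 cells) and lymph node library 2 (10 cells) held the 10 cells needed for a sum. Each fit therefore rests on 1 pair from the other organ, assumed to vary like the liver pairs, and cannot show a difference between organs. Actb (β-actin) was the 1 gene called in each, in opposite directions. In 1 of 7983 genes (0.0125%) the Gzmb difference was higher in liver than in spleen (log2 1.26 ± 0.10 SE, edgeR adjusted p = 3.4e-30), since spleen Gzmb+ cells had 10188 against 23882 CPM of Actb. In 1 of 7847 genes (0.0127%) it was lower in liver than in lymph node (log2 -0.78 ± 0.12 SE, edgeR adjusted p = 1.4e-06), where the levels were 27490.4 against 15648 CPM. In the liver they were 10695 and 12507 against 9998 and 12556 CPM. Single cells held 24.9% to 36.0% of the Actb UMIs of each spleen and lymph node sum, against at most 2.58% in the liver sums, and neither call held without library in the fit (DESeq2 kept the first and not the second). As a description, Klrc1 stood at 637 CPM in the 19 spleen Gzmb+ cells of library 1 and 839 CPM in the 8 of library 2, against 158 and 167 CPM in spleen cells without Gzmb, and at 347 CPM and 0 CPM in the 6 and 10 lymph node cells, against 43.8 and 51.9 CPM. In spleen, Ccl5 stood at 9738 and 6923 CPM in the Gzmb+ cells against 5522 and 4957 CPM in the others.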

How the data were processed

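Cells were sorted iNKT cells of mouse liver, spleen and lymph node, 2 libraries each. The deposited matrices hold counts of UMIs per gene and barcode, which the authors made with Cell Ranger 3.1.0 on mm10 (their processing notes, which also name Seurat). The annotation version is not given in the sources used here. The deposited gene lists pair Ensembl IDs with symbols, and the deposited barcode lists name the cells.

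Barcodes with 300 to 4000 genes and at most 15% mitochondrial UMIs were kept, which dropped 55 of them (15 in liver). No doublet caller was run. The upper gene limit and an alternative without the deepest 5% of cells stand in for one. Members, gene lists and tests were chosen with earlier results of these data known, and some listed receptor genes (Klra1, Klrb1, Klrc2) were also named by the study in iNKT1 cells of these libraries. The lists held 458 different genes.

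UMIs were summed per arm and library and tested with edgeR 4.0.16 (TMM, filterByExpr with a minimum count of 10, robust quasi-likelihood fit, Benjamini-Hochberg adjustment over all genes tested) with library as a block. The pairing is physical, since both arms of a pair are cells of 1 library. DESeq2 1.42.0 was an alternative. Sums under 10 cells were not used. The 5 rule genes and 191 ribosomal protein, rRNA and haemoglobin genes were left out of the tests. Alternatives varied the block, the filter, the tool, the controls, the matching, the Gzmb threshold, the exclusions, the depth and the deepest cells.

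Named genes were, in each comparison, up to 12 called genes per direction with the largest folds, the same direction in both pairs and a mean of at least 20 CPM. In the first comparison they also included up to 4 called genes of each list (or its most abundant gene), and a set of granule, cytokine and regulator genes was always reported. Lmo4, Malat1, Actb, and further genes named by value (Klra1, Klra5, Klrb1c, Il4, Icos, Hbb-bs, Cd8a and the genes of the UMI classes) were added after their values were seen. A called gene of the UMI classes is not reported here.

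Positions came from GENCODE vM21 (GRCm38) for 27645 (98.7%) of 27998 genes, and promoters from RefSeq (GRCm38.p6). The script was tested on simulated counts. Other tools were R 4.3.3, limma 3.58.1, Python 3.11.15, numpy 2.4.6, scipy 1.17.1, pandas 2.3.3 and matplotlib 3.10.9. Depth was 2880 to 3592 median UMIs per liver cell. The 4 liver sums held 704253 to 779476 UMIs, so that 1 UMI is worth more than 1 CPM.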

Additional observations from a re-analysis of the deposited data

Results flagged for a closer look

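The fitted Gzmb difference in Actb was not the same in the liver pairs as in the single spleen and lymph node pairs. In liver less spleen it came to log2 1.26 (edgeR interaction, adjusted p = 3.4e-30), and in liver less lymph node to log2 -0.78 (adjusted p = 1.4e-06). Each value rests on 1 library pair of the other organ, of 19 and 10 cells an arm. A single pair gives no spread within that organ, so neither value can show a difference between organs. Within the liver the log2 difference was 0.12 in library 1 and 0.01 in library 2, against -1.27 in spleen library 1 and 0.91 in lymph node library 2. The highest single cell held 94 of 272 (34.6%) and 155 of 622 (24.9%) Actb UMIs of the spleen arms with and without Gzmb, and 102 of 380 (26.8%) and 73 of 203 (36.0%) of the lymph node arms. Neither value was called without library in the fit, and with DESeq2 the lymph node value was not called. Their cause was not tested.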

How the results depend on the processing

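In the main comparison 20 genes were called. Without the replicate block (library not in the fit) the count was 2, with DESeq2 1, with 2 or more Gzmb UMIs 10, with exactly 1 UMI 4, with the excluding genes allowed 62 (42 higher) and without the deepest 5% of cells 3. The other 9 alternatives gave 17 to 28. All 20 genes kept the sign of their fold in every alternative with a test in which they were tested, and the cause of lost calls was not tested. The p given to a like fold and SE differed between fits, so these counts are not read as the strength of the differences. Hmgb2, not called at a log2 fold of 0.0030, stood at -0.26 (adjusted p = 7.7e-06) with the excluding genes allowed. With 1 library left out the fits give values with no test. The log2 fold of Lmo4, -0.58, ranged from -1.07 without replicate 1 to 0.0025 without replicate 2, and the other 19 kept their sign without either replicate.

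Against Gzma+ cells 2 genes were called, and 0 without the replicate block and 0 with DESeq2. For liver against spleen 1 was called, 0 without the block and 9 without matching. For liver against lymph node 1 was called, 0 without the block, 0 with DESeq2, 2 with up to 2 controls per cell and 29 without matching. For 3 or more against 1 UMI 0 were called, 7 without the block and 3 without the filter. At a threshold of 2 UMIs the organ comparisons left fewer than 10 cells and were not run.

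The share of liver cells meeting the rule, 12.1%, was 5.74% after thinning to 1000 UMIs, 18.4% with the excluding genes allowed, 4.62% at 2 or more UMIs and 11.1% to 13.1% with either library left out. Depth limits what can be tested: Prf1, Gzmk, Ccl3 and other rare genes had too few UMIs, and a cell with 0 Gzmb UMIs may still hold Gzmb RNA. Sums over 2 libraries cannot separate fewer expressing cells from less RNA per cell.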
